A study of Mus musculus with 16 samples.

Results

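Thyroids of mice on an obesogenic diet were examined for 8 genes that activate, carry, bind or read out thyroid hormone: the deiodinase genes Dio1 and Dio2, the transporter genes Slc16a10 and Slco4a1, the receptor genes Thra and Thrb, the target gene Klf9 and the binding-protein gene Crym. They were chosen by name, with earlier results of these data known, and all 8 were among the 21640 genes of the count table. Bulk RNA-seq had been done on the thyroids of 16 male C57Bl/6J mice, which were 8 weeks old when the diets started. Control mice (CD, n = 4 per time point) ate the chow diet, and the mice labelled HFD (HF+SD, n = 4 per time point) received high-fat food together with sucrose water. Glands were taken after 3 or 6 weeks on the diet, from different mice. The animals carried no transgene or deletion, and each library came from 1 mouse.

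Thyroid hormone leaves the gland mostly as T4, which cells convert to the active T3 by removing an outer-ring iodine. The type 1 deiodinase (D1, Dio1) and the type 2 deiodinase (D2, Dio2) are the selenoenzymes that do this, whereas the type 3 enzyme (Dio3) inactivates both hormones. D1 is abundant in thyroid, liver and kidney and also recovers iodide from degraded hormone, and D2 is known for its role in brown fat, pituitary and brain. Transporters pass the hormones across the plasma membrane, and the nuclear receptors TRα and TRβ, usually paired with a retinoid X receptor (RXR), bind T3 and regulate target genes such as Klf9.

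Of the 8 genes, 5 changed with the HF+SD at 6 weeks and 4 at 3 weeks, and the same 4 genes (Dio1, Dio2, Slco4a1 and Klf9) changed at both times. Dio1 and Slco4a1 rose, whereas Dio2 and Klf9 fell. Slc16a10 fell at 6 weeks and did not pass at 3 weeks, and neither receptor gene passed at either time. A change was called where the Benjamini-Hochberg adjusted p of edgeR's quasi-likelihood test over all tested genes was under 0.05. That threshold called 21.5% of the 18249 genes tested at 6 weeks and 14.9% of the 17238 tested at 3 weeks. Those shares are given beside the 5 of 8 and 4 of 7 tested genes. Since the 8 genes were chosen with earlier results of these data known, their counts cannot show an excess over all genes. At 6 weeks 2 of the 8 rose and 3 fell, beside 12.0% and 9.55% of all genes tested, and at 3 weeks 2 rose and 2 fell, beside 9.07% and 5.78%. An added requirement of an absolute log2 fold change above 1 left 4 at 6 weeks (12.6% of all genes) and 3 at 3 weeks (4.66% of all genes). The values of the diets did not overlap for 5 of the 8 at 6 weeks (all genes 23.8%, of which 13.8% higher and 9.97% lower) and for 4 of 7 at 3 weeks (23.6%, of which 13.1% higher and 10.5% lower). Genes called at both times in the same direction were 7.72% of the 17024 tested at both.

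**Figure D1:**
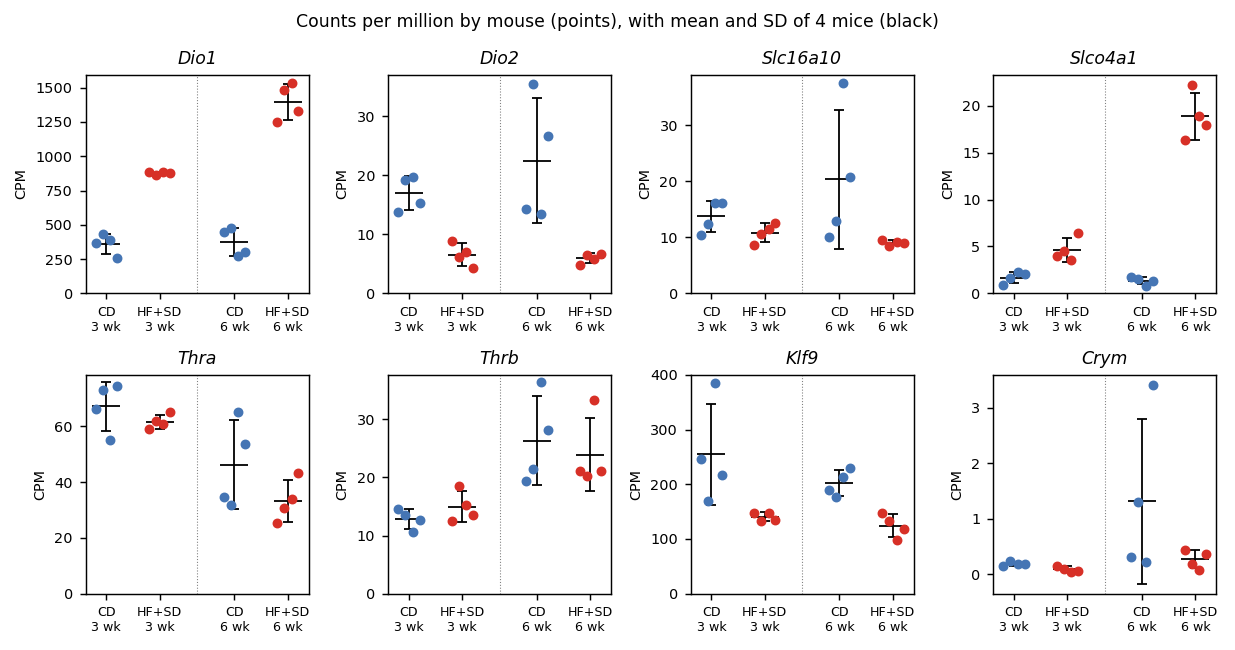
Counts scaled to library size (CPM, y axes) of the 8 genes in each mouse (points), by diet and weeks on the diet, with the mean and SD of 4 mice in black. Each panel has its own linear scale, and the values of the 3-week and 6-week libraries come from separate fits. The HF+SD mice lie above every CD mouse for Dio1 and Slco4a1 and below every CD mouse for Dio2 and Klf9 at both times.

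The promoters of the 4 genes that changed at both times are shown, since these are the sequences next to the starts of the genes on which the results turn. Each run is the 250 bases before a RefSeq gene start (GRCm38.p6), 5′ to 3′ in the direction of the gene. Slco4a1 has 2 such starts. Capitals mark the letters TGACG or its palindrome TGACGTCA, the core of a cAMP response element, and AGGTCA, the half-site of nuclear receptors, on either strand.
Dio1, chr4:107307169-107307418, minus strand: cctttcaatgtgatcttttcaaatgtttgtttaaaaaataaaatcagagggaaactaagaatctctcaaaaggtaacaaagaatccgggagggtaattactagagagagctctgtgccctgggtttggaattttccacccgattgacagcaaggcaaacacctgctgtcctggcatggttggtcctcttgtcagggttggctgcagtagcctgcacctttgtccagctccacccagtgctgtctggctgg
Dio2, chr12:90739039-90739288, minus strand: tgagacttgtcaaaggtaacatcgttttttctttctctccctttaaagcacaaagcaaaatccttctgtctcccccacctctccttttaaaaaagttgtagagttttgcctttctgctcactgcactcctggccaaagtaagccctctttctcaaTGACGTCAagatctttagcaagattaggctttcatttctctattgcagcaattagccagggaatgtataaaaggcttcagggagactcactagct
Klf9, chr19:23140976-23141225, plus strand: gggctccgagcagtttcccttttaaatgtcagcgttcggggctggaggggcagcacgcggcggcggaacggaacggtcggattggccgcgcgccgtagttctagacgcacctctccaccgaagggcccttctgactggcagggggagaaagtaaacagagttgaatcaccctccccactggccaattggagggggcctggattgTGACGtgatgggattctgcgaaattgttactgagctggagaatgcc
Slco4a1, chr2:180455995-180456244, plus strand: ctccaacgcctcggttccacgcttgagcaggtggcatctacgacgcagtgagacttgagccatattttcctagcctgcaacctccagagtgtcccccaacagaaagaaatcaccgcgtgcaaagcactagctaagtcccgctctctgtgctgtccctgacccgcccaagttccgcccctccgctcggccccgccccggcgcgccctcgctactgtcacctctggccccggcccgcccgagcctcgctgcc
Slco4a1, chr2:180460728-180460977, plus strand: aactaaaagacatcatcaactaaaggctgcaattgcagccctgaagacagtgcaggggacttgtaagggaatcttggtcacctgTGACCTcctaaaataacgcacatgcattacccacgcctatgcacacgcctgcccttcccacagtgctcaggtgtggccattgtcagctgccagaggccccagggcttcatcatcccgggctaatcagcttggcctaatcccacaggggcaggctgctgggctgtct

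In these windows the palindrome TGACGTCA was found in Dio2 alone, from 95 to 88 bases before the start, and 1.55% of 32851 promoter windows of the same length hold it. The shorter TGACG, which lies inside that palindrome, was also found 46 to 42 bases before the start of Klf9 and is in 17.8% of windows. The half-site AGGTCA was present once, on the reverse strand, 166 to 161 bases before the second Slco4a1 start, and 14.0% of windows hold it. The direct repeat of AGGTCA with a gap of 4 bases, the classic arrangement of a thyroid hormone response element, was in none of the members' windows and in 0.0152% of all windows. TATAAA, found in 12.4% of windows, lay 30 to 25 bases before the Dio2 start. The Dio1 window held none of the motifs searched, which were these and CACGTG, held by 6.02% of windows. Of the other genes, Slc16a10 and Thrb also had windows, and Thra and Crym had no entry. These are matches of letters, not binding sites.

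The libraries were deep and the gland was recognisable. Totals ran from 30025256 to 48508653 counts. The 11 thyrocyte genes, thyroglobulin (Tg) above all, took 27.3% to 30.2% of counts on the CD at 3 weeks. On the HF+SD they took 28.4% to 30.7%. At 6 weeks the ranges were 4.87% to 11.8% and 10.4% to 14.8%. The 9 thyrocyte genes used for scaling took 0.188%, 0.112% and 0.148% in M43, M45 and M48 at 6 weeks. Their share was 0.332% in M22 and 0.307% to 0.334% in the HF+SD mice. Results scaled to these 9 genes are among the settings below. At 6 weeks, 3 CD libraries also held many reads from skeletal muscle, a tissue beside the thyroid: 30 muscle genes took 3.86% of the counts of M43, 16.3% of M45 and 11.8% of M48, against 0.112% of M22 and 0.138% to 0.461% of the HF+SD mice. At 3 weeks their share was 0.0129% to 0.0259%. Because 28 of the 29 muscle genes tested at 6 weeks were lower on the HF+SD, 6-week results are given with these libraries in view. M22, poor in muscle reads, was the richest in parathyroid reads at 6 weeks: 5 parathyroid genes took 1.97% of its counts. Their share was 0.191% to 0.539% in the other CD mice of 6 weeks and 0.0658% to 0.284% in the HF+SD mice. In bulk RNA, fewer cells of a type and less RNA per cell cannot be told apart.

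Dio1 had the most reads of the 8 genes and rose at both times. Klf9 came close to it in M55, a CD mouse of 3 weeks, with 15006 counts beside 15096. At 6 weeks, Dio1 (ENSMUSG00000034785.16) stood at 447, 478, 275 and 302 CPM in M22, M43, M45 and M48 on the CD, and at 1251, 1482, 1532 and 1327 CPM in M5, M18, M34 and M35 on the HF+SD. The diets were clearly apart, and the 2 CD mice with the most muscle reads, M45 and M48, had the lowest values. The means were 376 ± 102 (SD, n = 4) and 1398 ± 131 CPM (SD, n = 4), a log2 fold change of 1.90 (SE 0.22; edgeR adjusted p = 0.000775).

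At 3 weeks, Dio1 was 364, 434, 388 and 261 CPM in the CD mice M53, M54, M55 and M96, and 883, 863, 888 and 878 CPM in the HF+SD mice M7, M19y, M20y and M31. The diets again did not overlap, and the HF+SD mice lay within a narrow band (SD 10.5 CPM, against 73.2 CPM on the CD). The log2 fold change was 1.28 (SE 0.14; edgeR adjusted p = 0.000598). Dio1 kept its call under all 19 alternative settings at 6 weeks, with log2 fold changes from 1.42 to 2.01, and under all 17 at 3 weeks. One of those settings kept M22 as the only CD mouse of 6 weeks and gave 1.64 (edgeR adjusted p = 0.00828). In that fit the CD has no replicate, M22 is assumed to vary like the HF+SD mice, and the p rests on the spread of those 4 mice alone.

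Dio2 moved the opposite way. Its 6-week values (Dio2, ENSMUSG00000007682.9) were 14.3, 35.5, 13.5 and 26.6 CPM in M22, M43, M45 and M48 on the CD, and 4.74, 6.49, 5.84 and 6.66 CPM in M5, M18, M34 and M35 on the HF+SD. The CD mice were spread over a wide range, but the lowest of them, M45, was above the highest HF+SD mouse. The mean went from 22.5 ± 10.6 to 5.93 ± 0.867 CPM (SD, n = 4 each), and the log2 fold change was -1.92 (SE 0.32; edgeR adjusted p = 0.00411).

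At 3 weeks the CD mice M53, M54, M55 and M96 had 13.9, 19.2, 19.6 and 15.3 CPM of Dio2, and the HF+SD mice M7, M19y, M20y and M31 had 8.95, 6.09, 6.98 and 4.23 CPM. There was no overlap here either. The log2 fold change was -1.38 (SE 0.22; edgeR adjusted p = 0.00321). Dio2 was called under every one of the 19 settings at 6 weeks and 17 at 3 weeks. With M22 as the only CD mouse of 6 weeks its value was -1.28 (edgeR adjusted p = 0.0314), where the spread again came from the HF+SD mice alone, although the CD mice varied more.

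Genes of brown fat, a tissue known for D2, were lower beside Dio2. Of 10 brown adipocyte markers, 5 of 8 tested fell at 6 weeks and 5 of 9 tested fell at 3 weeks, and none rose. Together they took 0.0743% to 0.0979% of counts in the CD mice of 6 weeks and 0.0123% to 0.0265% in the HF+SD mice. The ranges at 3 weeks were 0.0254% to 0.0476% and 0.0168% to 0.0259%. Ucp1, the uncoupling protein that defines brown fat, ranged over 187 to 416 CPM on the CD and 5.87 to 54.05 CPM on the HF+SD at 6 weeks, and was at 0 in no library. Zic1 was listed at 0 in every 3-week library. White adipocyte markers were also lower, 8 of 10 at 6 weeks and 7 of 10 at 3 weeks. Their part in the Dio2 result was not tested.

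The proportion of the 2 deiodinase transcripts was compared within each gland, a measure that does not depend on how libraries are scaled. At 6 weeks there were 31.3, 13.5, 20.4 and 11.3 Dio1 counts per Dio2 count in M22, M43, M45 and M48, and 264, 229, 262 and 199 in M5, M18, M34 and M35. At 3 weeks the CD mice had 17.0 to 26.3 Dio1 counts per Dio2 count and the HF+SD mice 98.6 to 208. The diets were fully separated at both times. This followed from the values above, since every HF+SD mouse had more Dio1 and less Dio2 CPM than every CD mouse. The unadjusted permutation p of this ratio was thereby fixed and is no separate evidence. The mean log2 ratio went from 4.14 ± 0.65 to 7.89 ± 0.19 at 6 weeks and from 4.40 ± 0.27 to 7.12 ± 0.45 at 3 weeks (SD, n = 4 each). For each, the exact two-sided permutation test gave p = 0.0286, the smallest that 4 against 4 mice can give, and 0.0571 after Benjamini-Hochberg adjustment over the 4 ratio comparisons made. Dio3 had 37 counts over the 8 libraries of 6 weeks and 26 over those of 3 weeks, too few to test.

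Slco4a1 encodes OATP4A1, an organic anion transporter that carries T3 among other substrates. Of the 8 genes it had the largest fold change at 6 weeks. Its 6-week values (Slco4a1, ENSMUSG00000038963.16) were 1.72, 1.51, 0.81 and 1.34 CPM in M22, M43, M45 and M48, from 25 to 66 counts a library, and 16.4, 22.2, 18.9 and 17.98 CPM in M5, M18, M34 and M35. The lowest HF+SD mouse was far above the highest CD mouse. The means of 1.34 ± 0.388 and 18.9 ± 2.48 CPM (SD, n = 4 each) differed 14.0-fold, a log2 fold change of 3.80 (SE 0.25; edgeR adjusted p = 0.000103), which was number 10 among the 18249 tested genes by p-value.

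At 3 weeks, Slco4a1 was 0.89, 1.61, 2.24 and 2.03 CPM in M53, M54, M55 and M96 and 3.95, 4.48, 3.59 and 6.46 CPM in M7, M19y, M20y and M31. The diets did not overlap, but the step was smaller, with a log2 fold change of 1.45 (SE 0.29; edgeR adjusted p = 0.0107). With the muscle score in the model the log2 fold change was 1.45 as well, but its SE rose to 0.41 and the call was lost (edgeR adjusted p = 0.0603). The muscle share was itself higher in every HF+SD mouse of 3 weeks, so diet and muscle reads are hard to tell apart in that fit. The difference between the 2 diet effects was 2.30 on the log2 scale (SE 0.38; edgeR adjusted p = 0.0438). It was the only one of the 8 genes to pass that test, which called 15 of 18929 genes (0.0792%). That call was lost in 12 of 25 alternative settings, although the difference stayed between 1.87 and 2.53. The names of the 3-week and the 6-week libraries carry different prefixes in the labels, and whatever the prefix marks cannot be told apart from time on the diet.

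**Figure D2:**
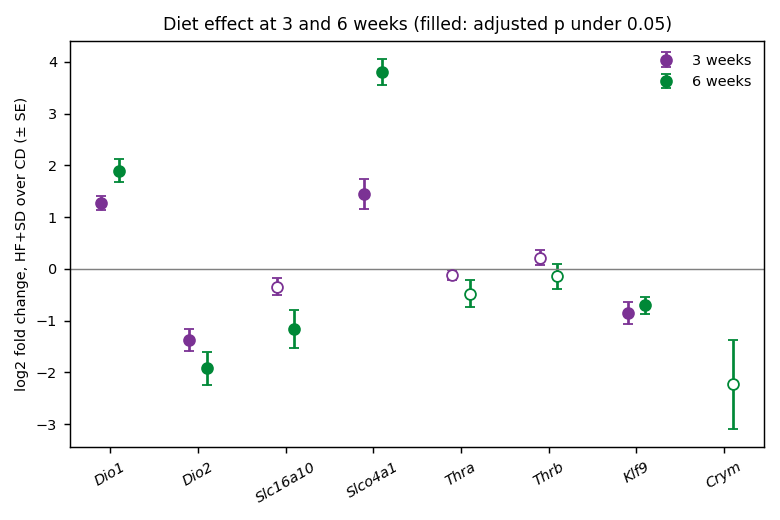
Log2 fold change of HF+SD over CD (y axis, ± SE) for the 8 genes (x axis) at 3 weeks (purple) and 6 weeks (green), from 4 mice per diet; filled points have an adjusted p under 0.05. Slco4a1 at 6 weeks stands highest, at 3.80, and Dio1 and Dio2 lie on opposite sides of 0 at both times. Crym was tested at 6 weeks only.

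Slc16a10 encodes MCT10, a carrier of aromatic amino acids and T3. At 6 weeks it (Slc16a10, ENSMUSG00000019838.12) had 10.1, 12.96, 37.6 and 20.7 CPM in M22, M43, M45 and M48 and 9.51, 8.52, 9.21 and 9.05 CPM in M5, M18, M34 and M35. The groups did not overlap, but the CD values followed the muscle reads of the library, from M22 at the bottom to M45 at the top. The log2 fold change was -1.16 (SE 0.36; edgeR adjusted p = 0.0493). With a muscle score in the model it was -0.28 and did not pass (edgeR adjusted p = 0.607). Against M22 as the only CD mouse it was -0.16, a value with no replicate on the CD. Of the 19 alternatives, 12 lost the call. At 3 weeks, where muscle reads were few, the values of 10.4 to 16.1 CPM on the CD and 8.66 to 12.6 CPM on the HF+SD overlapped (log2 fold change -0.34, SE 0.17, edgeR adjusted p = 0.197). The difference of its diet effects between the times was -0.89 on the log2 scale and did not pass the test (SE 0.44; edgeR adjusted p = 0.245).

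Of 16 transporter genes on the list, 9 were in the table and 8 were tested at each time, of which 2 rose and 1 fell at 6 weeks and 1 rose at 3 weeks. DESeq2 called 3 of the 8 at each time and limma 1. The second gene that rose at 6 weeks was Slco2b1, which encodes OATP2B1, with 16.7 CPM on the CD and 24.5 CPM on the HF+SD (log2 fold change 0.56, SE 0.17, edgeR adjusted p = 0.0471). The median log2 fold change of the list was -0.08 at 6 weeks and -0.0016 at 3 weeks, beside -0.011 and -0.0083 over all tested genes. Slco1c1, Slco1a1, Slco1a5, Slco1b2, Slc10a1, Slc17a4 and Slc22a8 were not among the genes of the table, and Slco1a4 was below the filter.

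Neither receptor gene passed the test. Thra (ENSMUSG00000058756.14), which encodes the T3 receptor TRα1 and a variant that does not bind T3, was at 34.6, 31.7, 65.1 and 53.6 CPM in M22, M43, M45 and M48 and at 25.2, 30.9, 33.9 and 43.1 CPM in M5, M18, M34 and M35. The diets overlapped, and M45 and M48 were the 2 highest. The log2 fold change at 6 weeks was -0.48 (SE 0.26; edgeR adjusted p = 0.213), and it was 0.02 without M45 and M48 (edgeR adjusted p = 0.976). After 3 weeks they ranged over 55.1 to 74.3 CPM on the CD and 59.1 to 65.0 CPM on the HF+SD (log2 fold change -0.12, SE 0.10, edgeR adjusted p = 0.436). Thra shares 263 bases of exon with Nr1d1 on the opposite strand, and since it is not stated whether counting used strand, reads of the 2 genes may be mixed. Nr1d1 did not pass the test at either time (edgeR adjusted p = 0.592 and 0.367).

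Thrb (ENSMUSG00000021779.20), which encodes TRβ, was likewise within the spread. The 6-week values were 19.3, 21.5, 36.4 and 28.2 CPM in M22, M43, M45 and M48 and 21.1, 20.2, 33.4 and 21.0 CPM in M5, M18, M34 and M35. M34 stood apart from the other HF+SD mice, and the groups overlapped (log2 fold change -0.14, SE 0.24, edgeR adjusted p = 0.716). At 3 weeks the CD mice had 10.6 to 14.5 CPM and the HF+SD mice 12.4 to 18.6 CPM (log2 fold change 0.22, SE 0.14, edgeR adjusted p = 0.335). The log2 ratio of Thrb to Thra counts within a library was 0.31 higher on the HF+SD at 6 weeks (exact two-sided permutation p = 0.257, adjusted 0.257) and 0.33 higher at 3 weeks (exact two-sided permutation p = 0.0857, adjusted 0.114).

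Among the receptors' partners, Rxrg alone passed the test. RXRγ, its product, is abundant in skeletal muscle. Rxrg fell at 6 weeks (log2 fold change -4.27, SE 0.86, edgeR adjusted p = 0.00960), with 2.21, 12.4, 58.5 and 31.8 CPM in M22, M43, M45 and M48 and 0.785 to 1.84 CPM on the HF+SD. The CD values ran in the order of the muscle shares. At 3 weeks it fell by 0.93 on the log2 scale (SE 0.24; edgeR adjusted p = 0.0305), from 1.78 to 0.934 CPM. Rxra and Rxrb passed at neither time. Of 15 coregulators, 1 fell at 6 weeks, the corepressor deacetylase Hdac3 (log2 fold change -0.40, SE 0.12, edgeR adjusted p = 0.0467). At 6 weeks 4 of the coregulators had an unadjusted edgeR p under 0.05, DESeq2 called 2, and limma called 0, so the Hdac3 call was lost with limma. None passed at 3 weeks, where 2 had an unadjusted edgeR p under 0.05, DESeq2 called 2 and limma called 1.

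**Figure D3:**
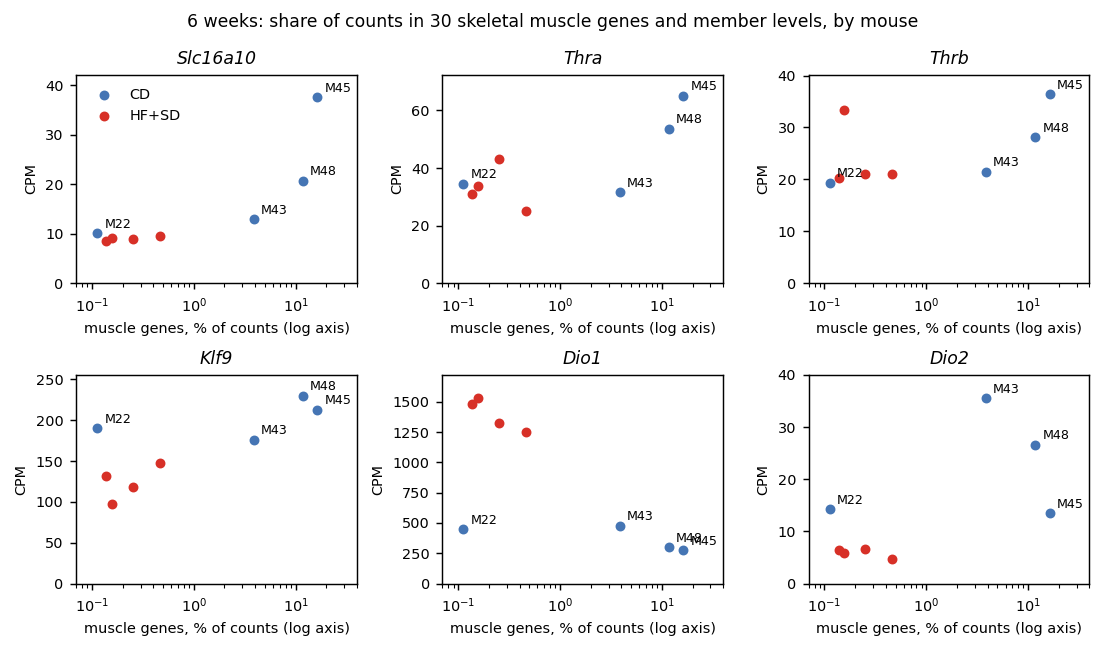
CPM of 6 genes (y axes) against the share of counts taken by 30 skeletal muscle genes (x axes, percent, log scale) in the 8 libraries of 6 weeks, with CD mice in blue and HF+SD mice in red. Slc16a10 and Thra are highest in M45 and M48, whereas M22, whose muscle share of 0.112% is below those of the HF+SD mice, has 447 CPM of Dio1 and 14.3 CPM of Dio2.

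Klf9 encodes a zinc finger transcription factor whose gene responds directly to T3 and also to glucocorticoids. At 6 weeks, Klf9 (ENSMUSG00000033863.3) was 190, 176, 213 and 230 CPM in M22, M43, M45 and M48 and 148, 132, 98.0 and 118 CPM in M5, M18, M34 and M35. The highest HF+SD mouse was below the lowest CD mouse. The log2 fold change was -0.71 (SE 0.16; edgeR adjusted p = 0.0169). At 3 weeks it was 246, 170, 386 and 218 CPM in M53, M54, M55 and M96 and 147, 132, 148 and 134 CPM in M7, M19y, M20y and M31.

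The groups did not overlap at 3 weeks either, and M55 carried the highest value (log2 fold change -0.86, SE 0.21, edgeR adjusted p = 0.0242). Without M55 it was -0.59 (edgeR adjusted p = 0.00689). The direction of Klf9 held under every setting, but its call was lost in 5 of 19 at 6 weeks and 5 of 17 at 3 weeks. With the muscle score in the model it was -0.57 at 6 weeks (edgeR adjusted p = 0.0821) and -0.68 at 3 weeks (edgeR adjusted p = 0.154). The 3-week fit is limited, as for Slco4a1, because the muscle share there differed fully between the diets.

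Other genes known to respond to thyroid hormone did not move one way. Of 12 such genes, which include Dio1 and Klf9, 2 rose and 4 fell at 6 weeks, and 2 rose and 2 fell at 3 weeks, with median log2 fold changes of -0.58 and 0.16. Hcn2, a pacemaker channel gene, rose at both times, from 2.98 to 5.48 CPM on the CD to 34.2 to 48.5 CPM on the HF+SD at 6 weeks (log2 fold change 3.50, SE 0.24, edgeR adjusted p = 0.000103), and by 2.58 at 3 weeks (SE 0.26; edgeR adjusted p = 0.000421). Thrsp, a regulator of lipogenesis that is abundant in fat, fell at both times, from 220 to 617 CPM to 44.9 to 57.0 CPM at 6 weeks (log2 fold change -2.97, SE 0.30, edgeR adjusted p = 0.000391) and by 2.21 at 3 weeks (SE 0.25; edgeR adjusted p = 0.000756). The part of the lower adipocyte markers in this result was not tested.

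In the other 2 genes that fell at 6 weeks, the CD values followed the muscle share. Rcan2, a calcineurin regulator, had 3.07, 24.0, 112 and 63.0 CPM in M22, M43, M45 and M48 and 4.30 to 6.90 CPM on the HF+SD (log2 fold change -3.10, SE 0.83, edgeR adjusted p = 0.0280). M22 was below all HF+SD mice. Idh3a, a subunit of mitochondrial isocitrate dehydrogenase, had 172 CPM in M22 and 339 to 718 CPM in the other CD mice, against 139 to 160 CPM on the HF+SD (log2 fold change -1.55, SE 0.37, edgeR adjusted p = 0.0183). At 3 weeks neither passed the test (edgeR adjusted p = 0.2005 and 0.316).

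**Figure D4:**
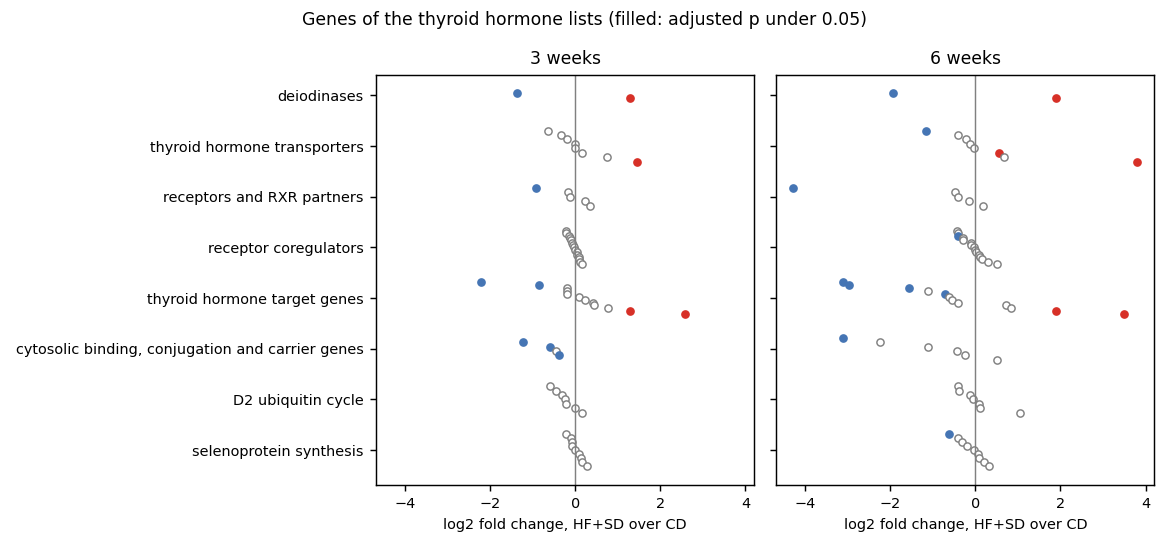
Log2 fold change of HF+SD over CD (x axes) for each tested gene (points) of 8 thyroid hormone gene lists (rows) at 3 weeks (left) and 6 weeks (right), with filled points for an adjusted p under 0.05, red above 0 and blue below. Most genes of the receptor, coregulator, ubiquitin and selenoprotein lists are open points near 0, and Slco4a1 and Hcn2 lie farthest to the right.

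Crym encodes µ-crystallin, a cytosolic protein that binds T3 and is abundant in muscle and brain. Its reads (Crym, ENSMUSG00000030905.6) were scarce: 11, 57, 7 and 120 counts at 6 weeks in M22, M43, M45 and M48, and 17, 6, 3 and 14 counts in M5, M18, M34 and M35. M48 and M43 were high and the other CD mice lay among the HF+SD mice. The counts did not run in the order of the muscle shares, since M45, with the largest share (16.3%), had 7. The log2 fold change of -2.23 (SE 0.85) did not pass the test (edgeR adjusted p = 0.0913), and it was -0.19 against M22 as the only CD mouse, a value with no replicate on the CD. At 3 weeks there were 2 to 8 counts a library, below the filter, so a difference was not detectable at this depth.

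Of 13 genes for hormone binding, conjugation and carriage, 8 were in the table, and 1 of 6 tested at 6 weeks and 3 of 4 tested at 3 weeks fell. Serpina7, Sult1c2, Ugt1a1, Ugt1a9 and Sts were not among the genes of the table. Alb and Ugt1a6a were below the filter at both times, and Sult1b1 and Crym at 3 weeks. DESeq2 called 3 genes of this list at each time, and limma called 1 at 6 weeks and 2 at 3 weeks. The sulfotransferase genes Sult1a1 (log2 fold change -0.58, SE 0.14, edgeR adjusted p = 0.0233) and Sult2b1 (-1.23, SE 0.36, edgeR adjusted p = 0.0480) fell at 3 weeks. Sult2b1 stood at 14.1 CPM in M55, against 4.34 to 5.64 CPM in the other CD mice and 2.53 to 3.77 CPM on the HF+SD. Aldh1a1, a retinaldehyde dehydrogenase, fell at both times. Its 6-week values were 16.9, 116, 295 and 532 CPM in M22, M43, M48 and M45, the order of the muscle shares. On the HF+SD they were 20.6 to 45.05 CPM (log2 fold change -3.10, SE 0.83, edgeR adjusted p = 0.0282), so M22 again lay below every HF+SD mouse. The part of the muscle reads in the 6-week result was not tested. At 3 weeks the log2 fold change of Aldh1a1 was -0.37 (SE 0.10; edgeR adjusted p = 0.0390).

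D2 is destroyed through ubiquitin tagging and both deiodinases need selenocysteine, so the genes of these steps were examined too. None of 7 genes of the D2 ubiquitin cycle passed the edgeR test at either time. At 6 weeks 1 of them had an unadjusted edgeR p under 0.05 and DESeq2 called 1, at 3 weeks 3 had such a p and DESeq2 called 2, and limma called 0. Among 9 genes of selenoprotein synthesis, Pstk, the kinase that acts on seryl-tRNA, fell at 6 weeks (log2 fold change -0.62, SE 0.18, edgeR adjusted p = 0.0409). Its CD values of 22.1, 23.6, 28.7 and 37.4 CPM in M22, M43, M48 and M45 ran in the order of the muscle shares, against 15.4 to 19.4 CPM on the HF+SD, and the part of the muscle reads in this result was not tested. DESeq2 called 1 gene of this list at 6 weeks and limma called 0. At 3 weeks none passed, 1 had an unadjusted edgeR p under 0.05, and DESeq2 and limma called 0.

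Per kilobase of exon, the mean levels of the 8 genes at 6 weeks on the CD were, in falling order, 191 CPM for Dio1, 42.0 for Klf9, 10.03 for Thra, 3.87 for Dio2, 3.56 for Thrb, 2.77 for Slc16a10, 0.387 for Crym and 0.280 for Slco4a1. The ranges of mean ± SD overlapped among Dio2, Thrb and Slc16a10, and between Crym and Slco4a1. On the HF+SD the order of these levels was Dio1 at 710 CPM per kilobase, Klf9 at 25.8, Thra at 7.21, Slco4a1 at 3.93, Thrb at 3.23, Slc16a10 at 1.23, Dio2 at 1.02 and Crym at 0.0810. Slco4a1 thus stood last on the CD and above Thrb on the HF+SD, where their ranges overlapped. The highest 3-week levels per kilobase were also those of Dio1 (184 on the CD, 446 on the HF+SD), Klf9 (52.9 and 29.2) and Thra (14.5 and 13.4).

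Over the 16 libraries, with each time point centred on its own mean, log2 CPM of Dio1 and Slco4a1 moved together (Pearson r = 0.93) and both ran against Dio2 (r = -0.85 and -0.84). These values contain the diet difference and the libraries' shared composition and are given as a description. The genes most like each member among 18929 were Spc25, Tmed3 and Sdf4 for Dio1 (r = 0.990 to 0.995), Cdo1, Aifm2 and Dbi for Dio2 (0.962 to 0.969), and Tesc, Lama3 and Piezo2 for Slco4a1 (0.977 to 0.984). Slc16a10 was closest to Pacsin3, Lrtm2 and Cep83 (0.963 to 0.970), Thra to Nfib, Cdc42ep3 and Hoxa4 (0.943 to 0.966), and Klf9 to Gnl2, Rbm17 and Nob1 (0.928 to 0.941). Thrb (2810002D19Rik, Polq and Napepld, 0.846 to 0.883) and Crym (Cd209a, Gatm and Chrna1, 0.835 to 0.877) had looser matches.

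**Figure D5:**
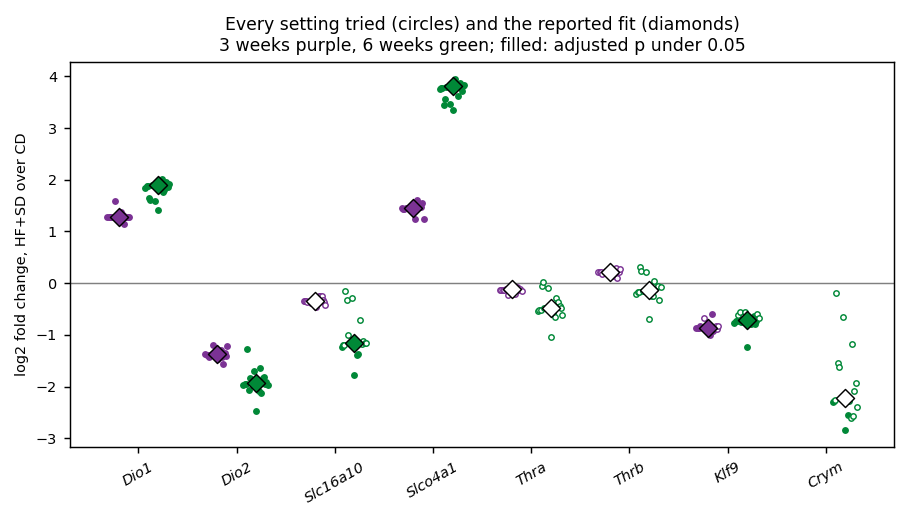
Log2 fold change of HF+SD over CD (y axis) of the 8 genes (x axis) under every setting tried (circles) and in the reported fit (diamonds), at 3 weeks in purple and 6 weeks in green, with filled symbols for an adjusted p under 0.05. Dio1, Dio2 and Slco4a1 at 6 weeks stay filled and on 1 side of 0 throughout, whereas Slc16a10, Thra, Thrb and Crym at 6 weeks reach toward or past 0.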

How the data were processed

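Poly(A) RNA libraries of 16 mouse thyroids were sequenced as read pairs by the authors. The deposited table of raw counts holds 1 column of whole-number counts per mouse. A second deposited table holds a normalized signal, in which the authors had divided the counts of a library by its size factor. The submitters' processing notes name Trim Galore 0.6.7, STAR, DESeq2 1.36.0, R 4.1.0 and the mm39 build; for the annotation, the counter, its strand setting and the rule that kept 21640 genes, the answer is: not given in the sources used here. Of these genes, 799 carried no symbol. Nothing in the labels pairs mice, and p-values measure the spread between mice of a group.

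Each time point was fitted alone in R 4.3.3 with edgeR 4.0.16 (TMM factors, filterByExpr, glmQLFit and glmQLFTest, n = 4 against 4), and p-values were Benjamini-Hochberg adjusted over all tested genes. A prior count of 2 was used in log2 CPM. CPM are from the fit of their own time point, and the SE is the absolute log2 fold change over the square root of F. The difference of diet effects came from 1 fit of all 16 libraries with a mean per group. Alternatives were DESeq2 1.42.0, its size factors, upper-quartile factors, scaling to 9 thyrocyte genes, no filter, a muscle score as covariate, muscle genes left out, 1 fit of all libraries, limma 3.58.1 on log2 of the deposited signal plus 1, and each mouse left out. Leaving out muscle-rich CD mice was added after seeing the data. Same-group libraries differed by far more than counting noise (chi-square per gene 15.1 to 871), so none was counted as a duplicate.

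The 8 genes and all lists were chosen with earlier results of these data known. Named genes were the 8 members, list genes past an adjusted p of 0.05 at either time, list genes not tested, and the 3 genes most correlated with each member; partners of exon overlaps and cell-type markers were named beside them. Exon lengths and overlaps were taken from GENCODE M21 (GRCm38), since no mm39 annotation was used here. Promoter windows are RefSeq's. Per-library depth is given with the results.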

Additional observations from a re-analysis of the deposited data

Results flagged for a closer look

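Thrb in M34, an HF+SD mouse of 6 weeks, stood at 33.4 CPM, while the other 3 mice of the group lay between 20.2 and 21.1. The gap was 0.93 of the group's range, above Dixon's critical value for a group of 4. This check was made on 32 groups, and chance flags about 1 group in 20. Without M34, the log2 fold change of Thrb at 6 weeks was -0.33 (edgeR adjusted p = 0.357).

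The diet effect on Slco4a1 differed between the time points, with a log2 fold change 2.30 higher at 6 weeks than at 3 weeks (SE 0.38; edgeR adjusted p = 0.0438). All 4 HF+SD mice were above all 4 CD mice at both times. The library names of the time points carry different prefixes, and what they mark cannot be told apart from time on the diet.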

How the results depend on the processing

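The 5 genes called at 6 weeks became 3 with the muscle score as a covariate, without M45 and M48, and without M43, M45 and M48, and 3 to 6 when 1 mouse was left out. At 3 weeks the 4 became 2 with the muscle score and 3 to 4 with 1 mouse left out. Because the muscle share of 3 weeks was higher in every HF+SD mouse, muscle-score fits of that time hardly tell muscle reads from diet. Over all genes, the 3928 calls at 6 weeks became 1912 with the muscle score, 6181 in 1 fit of 16 libraries, 1957 without M45 and M48, 1016 without M43, M45 and M48, and 1934 to 5743 with 1 mouse left out. At 3 weeks the 2560 calls became 1568 with the muscle score, 1420 in 1 fit, and 1448 to 3393 with 1 mouse left out. The 15 genes whose diet effect differed between times became 1820 with DESeq2, 92 with its size factors, 168 with upper-quartile factors, 582 with thyrocyte scaling, 101 with limma, 3 without M45 and M48, 0 without M43, M45 and M48 (2889 genes with an unadjusted edgeR p under 0.05), and 1 to 2715 with 1 mouse left out. Slco4a1, the 1 member among them, was lost (0 members) without M45 and M48, without M43, M45 and M48, and without 10 of the 16 mice, the count with 1 mouse left out being 0 to 1. In the fits without M43, M45 and M48, M22 alone stands for the CD of 6 weeks.

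No result changed sign past a threshold, and Dio1 and Dio2 kept their calls in every setting at both times. Scaling to thyrocyte genes moved the all-gene median by -0.50 (log2) at 6 weeks, and the share of calls that were higher from 55.6% to 15.0%. Dio1, at 1.42, and Slco4a1, at 3.35, stayed higher. Of the 9 scaling genes, 2 rose at 6 weeks in the reported fit, Cdh16 (log2 fold change 1.69) and Cdh1 (0.61). At 3 weeks 1 rose and 1 fell. The part of these genes' own diet differences in the shift was not tested. Crym at 6 weeks passed the threshold in 4 settings. The causes were not tested. No paired analysis was possible because mice of different groups share no number in the labels. The low counts of Crym and Dio3 limit what can be seen of them.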

Other observations

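The gene Gm26512, which shares 100 bases of exon with Dio2 on the opposite strand, fell with it at 6 weeks, from 0.709 to 0.137 CPM (log2 fold change -2.37, SE 0.48, edgeR adjusted p = 0.00975). It was below the filter at 3 weeks. Without the strand setting of the counting, reads of Gm26512 and Dio2 in that stretch cannot be told apart. Gm26512 had few reads beside the 5.93 to 22.5 CPM of Dio2.

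Endothelial genes were higher on the HF+SD, 8 of 8 at both times, and at 6 weeks their share of counts was 0.118% to 0.141% in HF+SD mice against 0.0237% to 0.0493% in CD mice. Of 11 thyrocyte genes, 6 rose at each time. Pth, the parathyroid hormone gene, varied from 2.10 to 2888 CPM among the mice of 3 weeks. Among those of 6 weeks it varied from 433 to 14594 CPM, with M22 the highest.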
